A study of Mus musculus with 2 samples.

Results

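Genes of the muscle acetylcholine receptor and the neuromuscular junction were followed by symbol through the single-cell data: the receptor subunits Chrna1, Chrnb1, Chrnd, Chrng and Chrne, and Musk, Rapsn, Dok7, Lrp4 and Agrn. They are 10 of the 32285 genes counted, and each symbol named 1 row. Counts of unique molecular identifiers (UMIs, 1 for each captured mRNA molecule) were summed over muscle cells, defined by at least 2 UMIs of Pax7, Myf5, Myod1 and Myog together, and over the other cell classes. In muscle cells of the library that held most of them, 6 of the 10 were at least 2-fold higher where Myog, a myogenic factor that is switched on as myoblasts differentiate, was high, against 7.73% of all genes with at least 50 UMIs there. Chrna1 covered the widest range, from 3.64 to 208 CPM (counts per 1000000 UMIs), whereas Rapsn stayed near 28 CPM and Agrn was 2.06-fold lower, a value close to the 2-fold threshold that did not pass it under every way of choosing the cells.

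Muscle fibres answer a motor nerve through pentameric acetylcholine receptors packed beneath the nerve ending. The fetal receptor is built from alpha1, beta1, delta and gamma subunits (Chrna1, Chrnb1, Chrnd and Chrng), and the gamma subunit is exchanged for epsilon (Chrne) as junctions mature. Agrin (Agrn), secreted by the nerve, binds LRP4 on the muscle surface, which activates the kinase MuSK together with its adaptor DOK7, and rapsyn (Rapsn) then anchors the receptors. Several of their genes are known targets of the basic helix-loop-helix factors Myod1 and Myog, which bind E-boxes, short sites of the form CANNTG.

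The samples were tdT+ cells sorted from trunks and limbs of E14 mouse embryos, 1 library labelled SRSF2f/f/Myf5-Cre/tdT and 1 labelled SRSF2f/w/Myf5-Cre/tdT. Both carried the Myf5-Cre driver and the Cre-dependent tdT reporter. Both Srsf2 alleles were floxed under the first label and 1 under the second, so the controls would also lose 1 allele where Cre was active. The reporter marks descendants of cells that had once used Myf5-Cre, non-muscle cells among them. The sort was gated on tdT signal, and whether each kept cell was such a descendant was not tested. How many embryos entered each library was not given in the sources used here.

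Srsf2, the targeted gene, went against these labels. It stood at 219 CPM (95% interval 217 to 221) in the library labelled SRSF2f/f and at 153 CPM (151 to 155) in that labelled SRSF2f/w, and at 251 and 183 CPM in muscle cells. The former also held 2753 muscle cells among 12523 kept cells (22.0%), the latter 140 among 10345 (1.35%). The study draws the floxed segment as a block without naming exons, so the 3' counts of Srsf2 may or may not report the deletion, and the study's own material places the libraries under opposite genotypes in different places. The libraries are therefore called by their labels, and no direction is assigned to the genotype. The kept cells held 151555303 and 122938843 UMIs, medians of 10751 and 9480 per cell, and 74 barcode sequences occurred in both libraries, carried by 13 and 1 of the muscle cells. With 1 library a label nothing was tested, and all intervals cover counting error only.

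Promoters are shown first for members that differed between differentiation states, in the 250 bases before the transcription start given by RefSeq, with exon bases left out. Of the 10 members, 7 matched the RefSeq promoter table of GRCm38.p6, and these are Chrna1, Chrnb1, Chrng, Chrne, Musk, Dok7 and Agrn. Capitals mark each CANNTG, and all sequences read 5' to 3' on the strand of the gene. Chrna1 lies on the minus strand (chr2:73580339-73580588), as do Chrnb1 (chr11:69795944-69796187) and Agrn (chr4:156197489-156197738). Chrng (chr1:87205561-87205809), Musk (chr4:58285712-58285959) and Dok7 (chr5:35056516-35056765) lie on the plus strand. Of the members printed without a promoter, Chrnd (chr1:87190607-87200070), Rapsn (chr2:91035620-91045729) and Lrp4 (chr2:91457511-91513779) lie on the plus strand and Chrne (chr11:70614883-70619216) on the minus strand, as whole genes of GRCm38.
Chrna1: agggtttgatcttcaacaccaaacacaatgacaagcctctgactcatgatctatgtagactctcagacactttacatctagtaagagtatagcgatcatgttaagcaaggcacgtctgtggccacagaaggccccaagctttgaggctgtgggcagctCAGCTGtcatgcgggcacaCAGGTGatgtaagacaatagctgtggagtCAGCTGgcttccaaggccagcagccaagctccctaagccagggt
Chrnb1: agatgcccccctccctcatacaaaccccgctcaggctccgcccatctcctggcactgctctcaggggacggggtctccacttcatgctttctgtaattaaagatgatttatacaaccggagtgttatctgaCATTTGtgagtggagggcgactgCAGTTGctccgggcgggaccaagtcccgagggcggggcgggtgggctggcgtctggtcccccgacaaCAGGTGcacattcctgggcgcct
Chrng: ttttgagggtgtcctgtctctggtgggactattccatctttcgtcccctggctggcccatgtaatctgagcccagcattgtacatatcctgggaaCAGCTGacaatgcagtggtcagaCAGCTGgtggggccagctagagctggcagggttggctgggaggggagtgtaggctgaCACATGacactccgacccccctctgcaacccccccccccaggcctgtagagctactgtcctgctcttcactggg
Musk: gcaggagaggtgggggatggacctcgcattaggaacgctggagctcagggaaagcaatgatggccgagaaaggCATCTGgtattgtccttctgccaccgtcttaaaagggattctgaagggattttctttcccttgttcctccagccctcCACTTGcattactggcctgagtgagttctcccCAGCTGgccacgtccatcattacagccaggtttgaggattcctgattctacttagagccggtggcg
Dok7: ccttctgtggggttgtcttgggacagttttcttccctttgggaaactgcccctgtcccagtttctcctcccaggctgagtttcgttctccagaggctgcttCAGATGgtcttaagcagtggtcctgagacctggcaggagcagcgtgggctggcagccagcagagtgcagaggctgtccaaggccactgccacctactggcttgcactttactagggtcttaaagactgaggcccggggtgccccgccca
Agrn: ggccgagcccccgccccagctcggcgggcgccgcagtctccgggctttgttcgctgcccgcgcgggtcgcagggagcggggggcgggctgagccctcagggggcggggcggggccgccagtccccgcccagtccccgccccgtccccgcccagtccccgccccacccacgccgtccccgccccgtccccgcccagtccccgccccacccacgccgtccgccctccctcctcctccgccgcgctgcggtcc

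Chrna1, Chrnb1, Chrng and Musk held 3 CANNTG each, Dok7 held 1 and Agrn none. Among all 32851 promoters of the table, 12.2% held 3 or more and 66.2% held at least 1, against 6 of the 7 members. CAGCTG occurred in 2 copies in Chrna1 and in Chrng, in 1 copy in Musk and in 1 in Chrne, that is in 4 of 7 members against 13.0% of all promoters. CACCTG, or its complement CAGGTG, was found in Chrna1 and Chrnb1 against 17.2% of all promoters. CANNTG and CAGCTG read the same on both strands, and both 6-letter forms are also CANNTG. The start used for Chrng is that of RefSeq, which lies 1154 bases inside the gene as GENCODE annotates it. A match is a string of letters and was not shown to be bound.

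Muscle cells were split by their own Myog UMIs into Myog-negative (0), Myog-low (1 to 4), Myog-mid (5 to 14) and Myog-high (15 or more). The library labelled SRSF2f/f held 1121, 641, 371 and 620 such cells, the library labelled SRSF2f/w 56, 24, 18 and 42. Median depth per cell varied little between the bins, from 13416 to 15106 UMIs in the former and from 14273.5 to 17384 in the latter. Genes that had not set the bins gave the order in the former. From Myog-negative to Myog-high cells the cycling marker Mki67 went from 267 to 127 CPM and the cell-cycle inhibitor Cdkn1a from 66.4 to 660 CPM. Myh3, the embryonic myosin heavy chain, went from 1.05 to 285 CPM. Under the label SRSF2f/w, Mki67 went from 184 to 89.1 CPM, Cdkn1a from 116 to 621 CPM and Myh3 from 0 to 257 CPM. The muscle gene Acta1 did not keep the order there, at 4.26, 547, 231 and 394 CPM. Its Myog-low level came from 226 UMIs in 4 of 24 cells and its Myog-mid level from 70 UMIs in 1 of 18 cells. Nor did Ckm keep it by value, at 0, 9.68, 19.8 and 3.76 CPM. These were 0, 4, 6 and 3 UMIs, those of Myog-mid cells in 1 cell, too few to give an order. Of the Myog-low cells under the label SRSF2f/f, 445 of 641 lay in clusters with the skeletal muscle marker profile (SKM-like), against 603 of 620 Myog-high cells. Outside the muscle rule, a Myog UMI was seen in 9.38% of endothelial (Endo-like) and 11.2% of cartilage (Chon-like) cells of that library. Under the label SRSF2f/w these shares were 1.41% and 1.36%. How much Myog of the Myog-low cells came from free RNA in the droplets was not tested. Levels below are CPM of UMIs summed over the cells of a bin and are compared within a gene, not between genes.

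Chrna1, which encodes the subunit that forms the main face of the acetylcholine binding site, showed the largest difference of the 10. Its level in the library labelled SRSF2f/f was 3.64 CPM in Myog-negative, 16.6 in Myog-low, 98.4 in Myog-mid and 208 in Myog-high cells. The corresponding levels in the library labelled SRSF2f/w were 9.58, 29.0, 145 and 267 CPM. Each bin lay above the one before it in both libraries. The Myog-high level was 57.1-fold that of Myog-negative cells (95% interval 44.7 to 74.2) under the first label and 27.9-fold (14.4 to 61.8) under the second, the latter resting on 9 UMIs in Myog-negative cells. The biggest step by value in all muscle cells was from Myog-low to Myog-mid, 5.92-fold (4.98 to 7.07) and 5.00-fold (2.59 to 10.4). Within SKM-like clusters, a comparison added after the levels were seen, that step was 4.91-fold (4.09 to 5.91) and 3.53-fold (1.81 to 7.41). There the step from Myog-negative to Myog-low was 5.26-fold (3.88 to 7.19) and 3.79-fold (1.46 to 10.2). Which step was larger thus depended on the cells chosen, and their intervals overlapped. Chrna1 was seen in 86.9% of Myog-high and 5.08% of Myog-negative cells under the first label.

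Chrng, the gamma subunit that marks the fetal receptor, also had its highest value in Myog-high cells. Its levels were 2.93, 5.60, 17.9 and 38.3 CPM from Myog-negative to Myog-high cells in the library labelled SRSF2f/f, and 6.39, 4.84, 36.3 and 46.4 CPM in that labelled SRSF2f/w. The difference between the outer bins was 13.1-fold (9.81 to 17.8) and 7.27-fold (3.04 to 21.1). The Myog-negative and Myog-low values under the second label came from 6 and 2 UMIs and did not differ beyond their intervals.

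Chrnd, the delta subunit and the chromosome 1 neighbour of Chrng, also had its highest value in Myog-high cells of both libraries. It had 1.77, 3.48, 12.9 and 17.5 CPM under the label SRSF2f/f, a 9.90-fold range (6.76 to 14.9). Only 18 UMIs of it were counted in muscle cells under the label SRSF2f/w, with 3.19, 2.42, 9.89 and 13.8 CPM. There the outer bins differed 4.32-fold, with an interval from 1.14 to 24.1. The step from Myog-mid to Myog-high cells was 1.35-fold (1.02 to 1.81) under the first label and 1.40-fold (0.369 to 7.79) under the second. Within SKM-like clusters under the first label it was 1.26-fold (0.952 to 1.69), so this last step was not resolved there or under the second label.

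Chrnb1, the beta subunit, was already present in Myog-negative cells. Its levels were 9.60, 13.4, 25.6 and 39.5 CPM in the library labelled SRSF2f/f, a 4.11-fold difference (3.43 to 4.94). The other library gave 6.39, 9.68, 13.2 and 38.9 CPM, a 6.09-fold difference (2.50 to 17.9). The fold of Chrnb1 lay below those of Chrna1, Chrnd and Chrng under the first label, with intervals that did not overlap, whereas under the second its interval overlapped theirs.

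Chrne, the adult epsilon subunit, was at the limit of detection. The 4 bins of the library labelled SRSF2f/f held 3, 2, 2 and 1 UMIs, and those of the other library 0. No fold was given for it. Chrne is also overlapped on the opposite strand by 4930544D05Rik, and how strand entered the counting was not given in the sources used here.

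**Figure D1:**
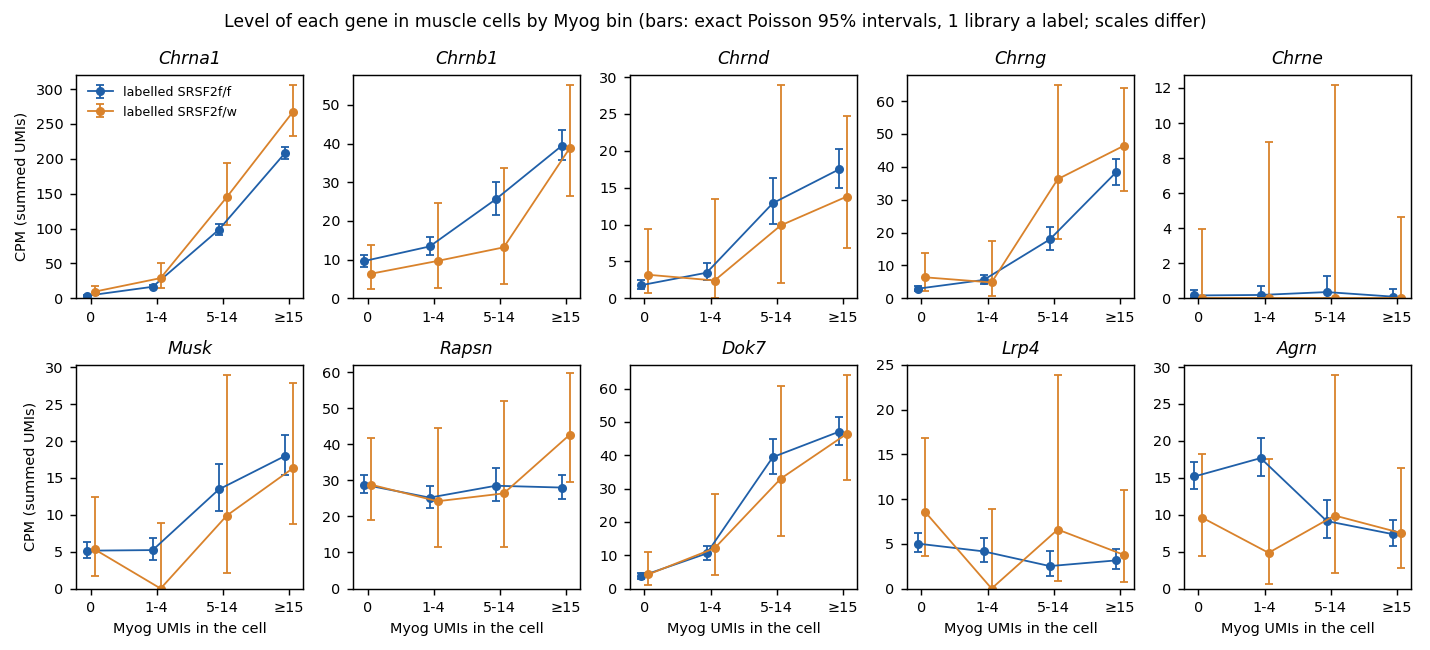
Level of each of the 10 genes in muscle cells (y axis, CPM of summed UMIs, scales differ between panels) by Myog UMIs in the cell (x axis), with exact Poisson 95% intervals, for the library labelled SRSF2f/f (blue) and that labelled SRSF2f/w (orange). Chrna1 reaches 208 and 267 CPM in the highest bin, Rapsn is near 28 CPM in every bin of the blue library, and Agrn goes there from 15.2 to 7.36 CPM.

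The genes that pass on the agrin signal did not move together. Dok7, the adaptor that activates MuSK, went from 3.64 and 10.5 CPM in Myog-negative and Myog-low cells to 39.4 and 47.0 CPM in Myog-mid and Myog-high cells of the library labelled SRSF2f/f. The library labelled SRSF2f/w gave 4.26, 12.1, 33.0 and 46.4 CPM. Most of this difference was reached by the Myog-mid bin: the last step was 1.19-fold (1.02 to 1.41) under the first label, against 2.12-fold (1.93 to 2.33) for Chrna1. Across the outer bins Dok7 differed 12.9-fold (9.96 to 17.0) and 10.9-fold (3.92 to 42.1).

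Musk, the receptor kinase, was level at 5.13 and 5.21 CPM in Myog-negative and Myog-low cells and then stood at 13.4 and 18.0 CPM under the label SRSF2f/f. Its outer bins differed 3.50-fold (2.71 to 4.54). The 21 UMIs under the label SRSF2f/w gave 5.32, 0, 9.89 and 16.3 CPM and a 3.06-fold difference (1.03 to 10.98). Musk thus did not differ between Myog-negative and Myog-low cells beyond its interval (0.712 to 1.44), while Chrna1 and Dok7 were already 4.56-fold (3.41 to 6.15) and 2.89-fold (2.11 to 3.98) higher in Myog-low than in Myog-negative cells of the first library.

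Rapsn, the anchor of the receptor, varied little with Myog under the first label. Its levels were 28.8, 25.2, 28.5 and 28.0 CPM in the library labelled SRSF2f/f, a ratio of 0.971 between the outer bins (0.838 to 1.12). Those in the library labelled SRSF2f/w were 28.7, 24.2, 26.4 and 42.7 CPM, a ratio of 1.48 (0.869 to 2.56). A 2-fold difference lay outside the first interval but inside the second. Rapsn is overlapped on the opposite strand by Gm13778, with the same limit on strand as for Chrne.

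Lrp4, the agrin receptor, was low in every bin. It had 5.02, 4.15, 2.51 and 3.14 CPM under the label SRSF2f/f, and the Myog-high level was 0.626 of the Myog-negative level (0.405 to 0.945). The other library had 8.52, 0, 6.59 and 3.76 CPM from 13 UMIs, a ratio of 0.442 whose interval (0.0755 to 1.84) included no difference.

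Agrn, the ligand, was lower in differentiating than in Myog-negative muscle cells of the larger sample. Its levels were 15.2, 17.7, 9.14 and 7.36 CPM under the label SRSF2f/f, with a ratio of 0.485 between the outer bins (0.371 to 0.628). The step lay between Myog-low and Myog-mid cells (0.517, 0.372 to 0.709). These bins differed in make-up: 445 of 641 Myog-low cells and 345 of 371 Myog-mid cells lay in SKM-like clusters. Within SKM-like clusters, a comparison added after the levels were seen, Agrn had 13.6, 12.0, 7.93 and 6.198 CPM, the same step was 0.659 (0.439 to 0.973) and the ratio of the outer bins 0.455 (0.335 to 0.609). In all muscle cells Agrn no longer passed 2-fold with a 5% mitochondrial limit (log2 ratio -0.97 in place of -1.04), with cells chosen by Pax7, Myf5 and Myod1 (-0.84) or with haemoglobin, mitochondrial and ribosomal genes out of the denominator (-0.98). The levels under the label SRSF2f/w were 9.58, 4.84, 9.89 and 7.53 CPM from 20 UMIs, and the ratio of 0.786 had an interval from 0.230 to 2.47.

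**Figure D2:**
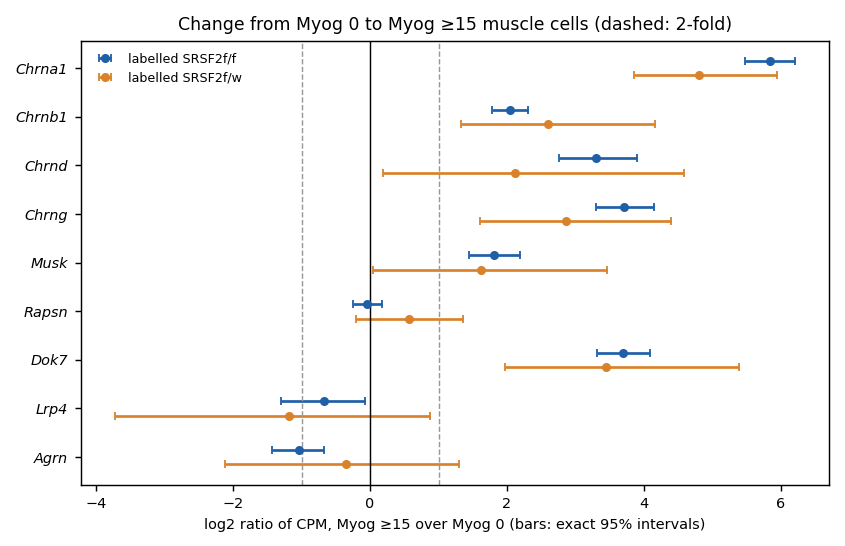
Log2 ratio of CPM in Myog-high over Myog-negative muscle cells (x axis) for 9 genes (rows, Chrne left out), with exact 95% intervals, for both libraries, and dashed lines at 2-fold. Chrna1 lies farthest to the right at 5.84 and 4.80, Rapsn is at -0.04 and 0.57, and Agrn is at -1.04 and -0.35.

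In all, 6 of the 10 members were at least 2-fold higher in Myog-high than in Myog-negative cells of the library labelled SRSF2f/f, namely the 4 fetal subunits, Musk and Dok7, against 7.73% of the 12274 genes with at least 50 UMIs in its muscle cells. Agrn alone was at least 2-fold lower, at the threshold as described above, against 14.0% of those genes. Of the members, 9 had 50 UMIs, and Chrne did not. The median log2 ratio was 1.92 over the 10 members (Chrne entered as 0) and -0.17 over the 12274 genes. The library labelled SRSF2f/w again had 6 members that were higher. Of the 4 members with 50 UMIs there, Chrna1, Chrng and Dok7 were higher, against 6.97% of 5124 genes. Chrng and Dok7 had 56 UMIs each, 37 of them in Myog-high cells, and so passed the minimum only through that bin. Chrnb1, Chrnd and Musk, with 45, 18 and 21 UMIs, were under the minimum and have no share to be set beside. Of the members over the minimum 0 were 2-fold lower, against 9.74% of those genes. Lrp4, under it with 13 UMIs, was 2.26-fold lower on 3 against 8 UMIs.

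Between the libraries, muscle cells were compared within bins, since the bins were filled differently. With the 4 bins weighted alike, 0 of the 10 members were 2-fold apart. This was also 0 of the 3 members over the minimum, against 1.16% of the 5154 genes over it. The 3 members were Chrna1, Rapsn and Dok7. Agrn, under the minimum with 20 UMIs under the label SRSF2f/w, lay farthest apart of the members with a ratio, at a log2 ratio of 0.63. Chrna1 was 81.7 CPM in the library labelled SRSF2f/f and 113 CPM in that labelled SRSF2f/w, a log2 ratio of -0.46. It was lower under the first label in every bin, by log2 ratios of -1.40, -0.81, -0.56 and -0.36 from Myog-negative to Myog-high cells, and the interval included 0 in Myog-low cells (-1.65 to 0.17) and in no other bin (-0.56 to -0.15 in Myog-high cells). Dok7 differed by 0.07 and Rapsn by -0.14. By value Rapsn was lower under the first label only in Myog-high cells (-0.61, -1.12 to -0.05). That bin held 34 Rapsn UMIs over 42 cells under the second label, and the interval covers counting error only. Srsf2 itself was 246 against 187 CPM, a log2 ratio of 0.40. These ratios compare 2 libraries whose labels the Srsf2 counts go against.

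The Myog-negative bin was divided further by Myod1, the factor that acts before Myog, an analysis chosen after its levels were seen. Chrna1 of the library labelled SRSF2f/f stood at 0.213 CPM (1 UMI) in the 325 cells without a Myod1 UMI, at 4.64 CPM in the 404 cells with 1 to 2 and at 5.04 CPM in the 392 cells with 3 or more. Dok7 gave 0.852, 3.09 and 6.04 CPM in the same cells. All but 1 of the Chrna1 UMIs of Myog-negative cells were thus in cells that had Myod1. Rapsn gave 21.5, 28.0 and 34.5 CPM, a smaller difference, and Chrnb1 (9.16, 8.50 and 10.9 CPM) and Agrn (15.8, 14.4 and 15.5 CPM) did not differ beyond their intervals. Rapsn, Chrnb1 and Agrn were therefore counted in muscle cells with neither Myod1 nor Myog UMIs, which the rule had kept for Pax7 and Myf5. Musk and Lrp4 had 16 UMIs each in these 325 cells, Chrng 6, Dok7 4, Chrnd 3 and Chrne 0. Under the label SRSF2f/w the same division gave 19, 15 and 22 cells, with 1, 1 and 7 Chrna1 UMIs.

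A receptor needs its subunits in the same cell, so the 4 fetal subunits were also counted cell by cell. All 4 were seen in 0 of 1121 Myog-negative cells of the library labelled SRSF2f/f, which allows a share of up to 0.268%, and in 0.624%, 1.62% and 4.52% of Myog-low, Myog-mid and Myog-high cells. The last is 28 of 620 cells (95% interval 3.02 to 6.46%). None of the 4 was seen in 77.3%, 65.2%, 23.7% and 5.48% of the cells of these bins. All 4 were seen in 1 of 18 Myog-mid and 2 of 42 Myog-high cells of the other library. Once every cell was thinned to 2000 UMIs, no cell of either library had all 4, so the shares reflect depth as well as expression, and a cell without a UMI is not a cell without the transcript.

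**Figure D3:**
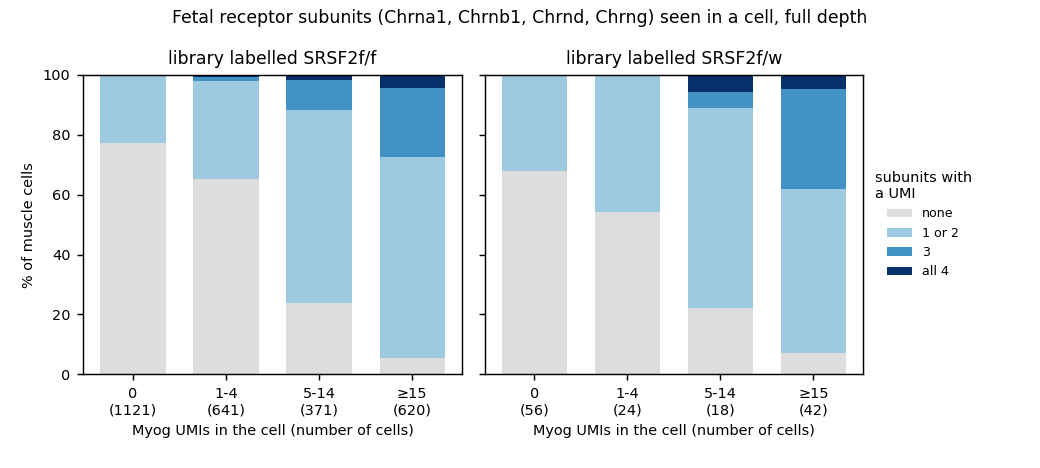
Share of muscle cells (y axis, percent) by the number of fetal subunits (Chrna1, Chrnb1, Chrnd, Chrng) with a UMI at full depth, for each Myog bin (x axis, number of cells in brackets) and library. The share with none goes from 77.3% to 5.48% in the library labelled SRSF2f/f, and the share with all 4 reaches 4.52%.

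Thinning also set the shares of single genes on 1 depth, beside endothelial (Endo-like) cells as a class outside muscle. Agrn and Chrnb1 were also counted in endothelium (below), so shares in Endo-like cells do not measure free RNA in the droplets alone. Chrna1 of the library labelled SRSF2f/f was seen in 32.7% of thinned Myog-high cells, 1.07% of Myog-negative cells and 0.260% of Endo-like cells. Dok7 gave 9.19%, 1.07% and 0.260%, and Chrnb1 8.87%, 2.23% and 1.56%. Rapsn was at 5.81% of Myog-high and 6.60% of Myog-negative cells. Agrn was seen in 0.806% of Myog-high, 2.77% of Myog-negative and 10.2% of Endo-like cells, so its highest share of these was outside muscle. At full depth the shares for Chrna1 were 86.9%, 5.08% and 2.34%, at median depths of 14693, 14863 and 12256 UMIs.

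In the library labelled SRSF2f/f the 10 genes divided into those held mostly by muscle cells and those shared more with other classes. Muscle cells of the library labelled SRSF2f/f held 94.8% of all Chrna1 UMIs, 94.4% of Chrnd, 94.1% of Chrng, 92.9% of Musk, 88.2% of Chrnb1, 84.9% of Rapsn and 84.4% of Dok7. They held 35.4% of Lrp4, 34.8% of Chrne (8 of 23 UMIs) and 16.1% of Agrn. Muscle cells made up only 1.35% of the library labelled SRSF2f/w and held 84.8% of Chrna1, 84.8% of Chrng, 78.3% of Chrnd and 63.6% of Musk, but 39.2% of Dok7, 20.5% of Chrnb1 and 20.2% of Rapsn. These shares depend on how many muscle cells a library held. Of the UMIs of all genes, muscle cells held 44240963 of 151555303 under the first label and 2452892 of 122938843 under the second. The share of each member is to be read against these. Myh3, which the muscle rule did not use, was at 1.46 CPM in Mesen-like (mesenchymal) cells of the first library and at 0.535 CPM in those of the second, and the part of muscle RNA in the values below was not tested.

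Agrn was widespread. It was highest in Schwann-lineage (Sch-like) cells at 87.3 CPM (75.4 to 101) and in pericyte (Peri-like) cells at 71.4 CPM (60.4 to 83.8) under the label SRSF2f/f, and reached 88.3 and 84.9 CPM under the label SRSF2f/w. Neu-like (neuronal) cells followed at 52.9 and 49.1 CPM, Epi-like (epidermal) cells at 47.4 and 42.0 and Endo-like cells at 44.7 and 37.8. Sch-like and Peri-like cells did not differ beyond their intervals in either library, nor did Neu-like and Epi-like cells. Mesen-like cells had 25.1 and 27.5 CPM, muscle cells 13.2 and 8.15, and Immu-like (immune) cells the lowest level, 4.86 and 7.03. Muscle and Immu-like cells differed beyond their intervals only in the first library. Agrn is made in several splice forms with different activity on receptors, and 3' counts do not tell them apart.

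Rapsn had a second site of expression in Immu-like cells, at 37.9 CPM (29.97 to 47.3) under the label SRSF2f/f and 19.3 CPM (16.8 to 22.1) under the label SRSF2f/w. It was seen there in 33.6% and 20.1% of cells, against 1.04% and 0.202% of Endo-like cells, at median depths of 12865 and 14933 UMIs against 12256 and 15423. Muscle cells stood at 27.7 and 32.2 CPM. Within Immu-like cells it was carried by the cluster led by the mast-cell genes Cma1 and Cpa3 (51.0 and 28.4 CPM) and by that led by Lyz2 and C1qb, genes of macrophages (48.0 and 17.9 CPM), while the cluster led by Gzma and Cd3g had 5.52 and 2.60 CPM. Chrna1 in the same Immu-like cells was only 0.972 and 0.182 CPM.

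Chrnb1 was also counted in endothelium. Endo-like cells had 4.12 CPM (2.67 to 6.08) under the label SRSF2f/f and 4.98 CPM (4.02 to 6.10) under the label SRSF2f/w. Chrna1 was at 1.81 and 0.375 CPM in the same cells. The Endo-like cluster led by Ccl21a and Lyve1, genes of lymphatic vessels, held 7.37 and 7.14 CPM of Chrnb1, and the cluster led by Emcn and Ctla2a 1.49 and 2.29 CPM. Lrp4 was highest in Osteo-like (bone-forming) cells, at 11.8 CPM (9.04 to 15.1) and 6.03 CPM (3.58 to 9.54), above the 4.07 and 5.30 CPM of muscle cells in the first library but not beyond the interval in the second. Chrne gave 39 UMIs (3.56 CPM, 2.53 to 4.87) in Immu-like cells under the label SRSF2f/w, 33 of them in the cluster led by Cma1 and Cpa3, and 3 UMIs (1.46 CPM) under the label SRSF2f/f. That is more UMIs of Chrne than in all muscle cells of both libraries.

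**Figure D4:**
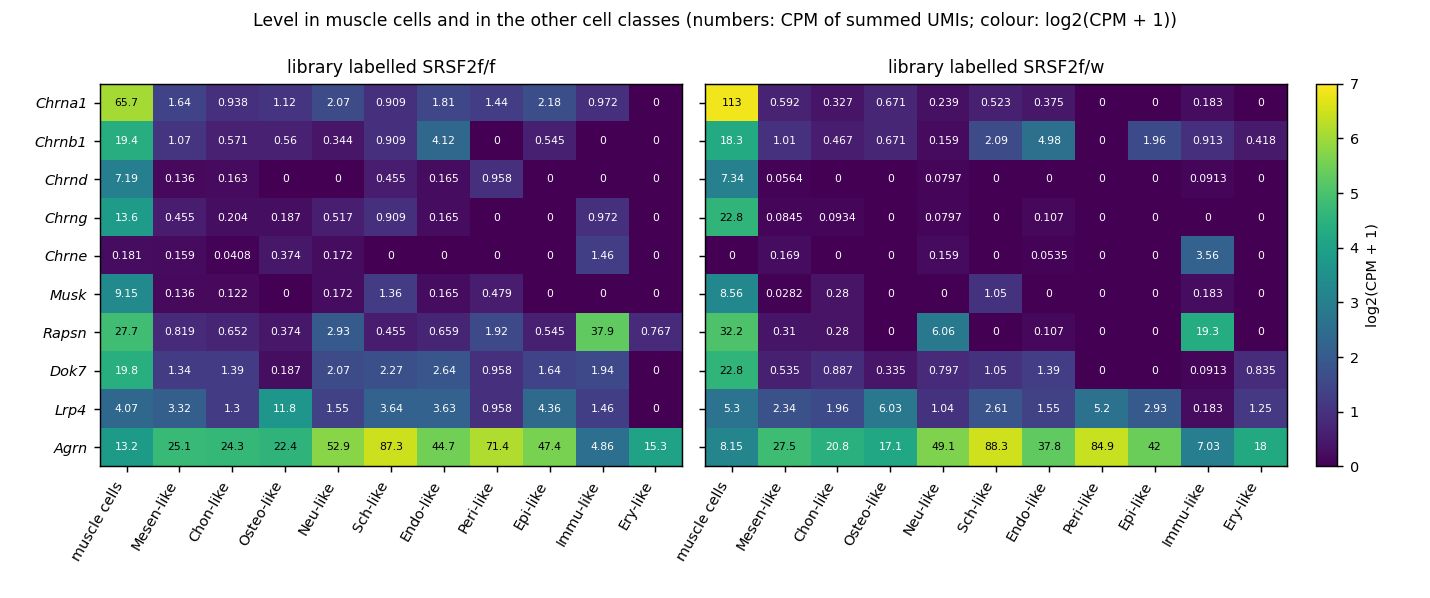
Level of each gene (rows, numbers are CPM of summed UMIs, colour is log2(CPM + 1)) in muscle cells and 10 other cell classes (columns) in both libraries. Chrna1, Chrnd, Chrng and Musk stand out in the muscle column, Rapsn also in Immu-like cells (37.9 and 19.3 CPM), and Agrn in nearly all columns, led by Sch-like cells (87.3 and 88.3 CPM).

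Among clusters of muscle cells, the cluster led by Tnnt2, Mymx and Myog (717 muscle cells of the library labelled SRSF2f/f) held 224 CPM of Chrna1, 42.7 of Chrng and 46.3 of Dok7. The SKM-like clusters led by Pax7 and by Msc held 23.7 and 11.4 CPM of Chrna1. Rapsn was at 33.8 CPM in the former and 29.1 and 31.8 CPM in the latter, a narrow range. Muscle cells by the UMI rule that lay in Chon-like (cartilage) and Mesen-like clusters had lower values of both: the 79 in the Chon-like cluster led by Cenpe and Esco2 had 5.16 CPM of Chrna1 and 13.6 CPM of Rapsn, the 59 in the largest Mesen-like cluster 1.27 and 8.87 CPM. Agrn went the other way, with 20.6 CPM (14.98 to 27.7) and 25.3 CPM (15.5 to 39.1) in these cells against 13.0, 9.80 and 7.01 CPM in the SKM-like clusters led by Pax7, Msc and Tnnt2. The Myog-negative bin of the library labelled SRSF2f/w also held 172 CPM of the neuronal gene Prph, from 162 UMIs in 5 of 56 cells. Under the other label that bin held 12.1 CPM, from 46 of 1121 cells. The part of neuronal RNA in the values of the former bin was not tested.

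A wider list of 35 junction genes moved in both directions, with a median near that of all genes. Of these, 8 in the library labelled SRSF2f/f were at least 2-fold higher in Myog-high than in Myog-negative cells and 7 lower, and 7 and 6 of these were among the 32 with 50 UMIs, against the 7.73% and 14.0% of all genes given above. The median log2 ratio of the list was -0.18, next to -0.17 for all genes. In the other library 5 were higher and 6 lower, and 3 and 2 of these were among the 16 with 50 UMIs, against 6.97% and 9.74% of all genes there. In both libraries, higher genes made up a larger part of the list genes with 50 UMIs than of all genes. The same held for lower genes, by less.

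The 3 highest ratios were those of Scn4a, Erbb4 and Nes. Scn4a, the muscle sodium channel, went from 3 to 15 UMIs, 8.89-fold with an interval from 2.52 to 47.9. Erbb4, a neuregulin receptor, went from 0.442 to 3.14 CPM (7.12-fold, 3.21 to 17.9), and Nes, the intermediate filament nestin, from 87.7 to 485 CPM (5.53-fold, 5.22 to 5.86). Nes gave 68.1 and 483 CPM under the label SRSF2f/w, while Scn4a had no UMI and Erbb4 2 in either of these bins. The other 5 that were higher, named after their values were seen, were Sntb1, Hdac9, Erbb3, Ache and Plec, with log2 ratios from 1.08 to 1.83. They include the esterase that clears acetylcholine (Ache) and a further neuregulin receptor (Erbb3).

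The 3 lowest were Colq, Nrg1 and Lama4. Colq, the collagen tail that tethers the esterase, went from 20 UMIs to 1, a log2 ratio of -3.49 (-8.86 to -0.85). Nrg1, the ligand neuregulin, went from 7.84 to 2.26 CPM, and Lama4, a laminin chain of the synaptic basal lamina, from 46.5 to 14.1 CPM, 3.47-fold and 3.29-fold lower. In the other library Lama4 was at 30.9 and 17.6 CPM, and Nrg1 and Colq had at most 4 UMIs in these bins. The other 4 that were lower, Etv4, Dmd, Sntb2 and Pak1, had log2 ratios from -1.66 to -1.34 and were also named after their values were seen.

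Of 11 neuronal nicotinic subunits, Chrna4 was the one found in differentiating muscle cells. Its levels were 0.607, 1.64, 6.81 and 20.9 CPM across the 4 bins of the library labelled SRSF2f/f, 34.4-fold between the outer bins (18.9 to 70.1). In the other library 11 UMIs were seen in Myog-high cells (13.8 CPM) and 0 in the other bins, at least 4.32-fold higher than a floor of 3 UMIs in Myog-negative cells and at least 1.40-fold higher than that floor in Myog-mid cells. Neu-like cells had 9.64 CPM of Chrna4 in both libraries. The other neuronal subunits with 50 UMIs in a library were at or below 1.60 CPM in every muscle bin under the label SRSF2f/f, and they were Chrna3, Chrna5, Chrna7, Chrnb2 and Chrnb4. Chrna3 (6.54 and 8.21 CPM) and Chrnb2 (15.7 and 13.1 CPM) lay in Neu-like cells. Markers of motor neurons, the source of neural agrin, were mixed among Neu-like cells. Chat, which makes acetylcholine, had 4 and 9 UMIs and Mnx1 0 and 12. Isl1, at 230 and 318 CPM, and Prph, at 1007 and 1370 CPM, were abundant there. Slc18a3 and Slc5a7 were at 5.51 and 4.99 CPM under the first label.

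Over the 8 muscle bins of both libraries, the profile of log2(CPM + 1) most like that of Chrna1 was that of Timm22 (Pearson r = 0.99), followed by Tmod1 and Polr2i, among 9573 genes with 200 UMIs. Chrng was nearest to Myom1, Tmod1 and Stk38, Dok7 to Dll1, Rbm24 and Rb1, and Rapsn to Cops2, Osgepl1 and Dapk3. The bins share libraries and depth, so these names describe 8 points and no more. Only 3 of the 24 genes so named for 8 members were also named by rank correlation. Rank correlations over 8 points tie, at 1 for all 3 genes named for Chrna1. That overlap therefore does not measure how far the 2 kinds of correlation differ.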

How the data were processed

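Single cells had been prepared with 10x Genomics 3' v3.1 chemistry. The deposited values are UMI counts, whole numbers per gene and barcode, which the authors made with Cell Ranger, mapping to mm10 and down-sampling reads between libraries (version 5.0.0 in the file header, 3.1.0 in the submitters' processing notes, which also list STAR and Seurat 3.1.1). Barcode suffixes were matched to libraries through the cell numbers in each sample's own summary, 15268 and 12498. Barcodes beyond 2 SD in log10 UMIs or log10 genes of their own library were dropped, as were those over 10% mitochondrial UMIs. Clustering took 2000 variable genes without the members, 30 components, 20 neighbours and Leiden at a resolution of 0.8 (leidenalg 0.10.2, scikit-learn 1.9.0, Python 3.11.15, NumPy 2.4.6). Clusters were called "X-like" from marker lists (at least 3 markers 1.5-fold higher and seen in 25% of cells), and muscle cells were counted apart from the classes. A cluster stayed unnamed where another list had more raised markers or more of its leading genes. The same held for a shallow cluster with no leading gene on its list. A cluster of 62 cells led by Acta1 and Tnnc2 stayed unnamed, although the SKM list scored best and had 3 raised markers. SKM-like cells outside the muscle rule (180 and 27) and unnamed clusters are not described. In the shares held by muscle cells, cells of both that failed the muscle rule count as outside muscle.

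CPM have exact Poisson intervals, shares Clopper-Pearson intervals and ratios intervals from the binomial split of the counts (95%, SciPy 1.17.1). The pipeline was tested on simulated data. The members, lists and bins were chosen with earlier results of these data known. A count of 0 allows a share of up to 3 counts of the total. Named were all members, the 3 highest and 3 lowest of the junction list, neuronal subunits with 50 UMIs in a library, and motor neuron genes. Of the bin genes, and of the 3 genes most like each member with 200 UMIs, only part are given. A call is a 2-fold ratio with a floor of 3 UMIs, and a bound that allows both directions is no call. Positions were taken from GENCODE and promoters from RefSeq, both on GRCm38. The comparison of subunit proteins was not run.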

Additional observations from a re-analysis of the deposited data

How the results depend on the processing

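No paired analysis was possible because each label has 1 library. Scrublet marked 1 of 12523 and 0 of 10345 cells, which shows that it had not worked, so the alternative without doublets gave no value. Of 200 recomputed values of the counts and shares, 166 kept within their limits. The number of members that were higher was 6 in both libraries under every alternative run, except 5 under the label SRSF2f/w with a 5% mitochondrial limit.

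Agrn, the member counted as lower under the label SRSF2f/f, lay at the threshold: the count was 0 with a 5% mitochondrial limit, with muscle cells chosen by Pax7, Myf5 and Myod1, with haemoglobin, mitochondrial and ribosomal genes out of the denominator and at 3-fold, where its log2 ratio ranged from -1.04 to -0.84, and 2 (with Lrp4) with Myog per 10000 UMIs and at 1.5-fold. Under the label SRSF2f/w, the count (Lrp4) was 0 without the 2 SD limits, at 5%, with Myog per 10000 UMIs and at 3-fold. Between the libraries 1 member, Agrn, was apart in SKM-like clusters only (log2 ratio 1.03) and at 1.5-fold.

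Of the junction list, 8 were higher at 1.5-fold and 3 at 3-fold under the label SRSF2f/w, 3 were lower with Pax7, Myf5 and Myod1 cells and 2 at 3-fold, and under the label SRSF2f/f 4 were lower at 3-fold. All 4 fetal subunits were seen in 6.48% of cells with 25 or more Myog UMIs under the label SRSF2f/f, and in 0 Myog-mid cells under the label SRSF2f/w with Pax7, Myf5 and Myod1 cells. Thinning to 1000 or 2000 UMIs gave 0 in every bin, and thinning to 5000 gave 0.275% of Myog-mid and 0.484% of Myog-high cells under the label SRSF2f/f and 0 elsewhere. The cause was not tested in these cases except where fewer UMIs or another fold make the change. Leaving out barcodes that both libraries share, chosen after seeing the data, moved no count by over 1.5 times.

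The number of muscle cells limits the library labelled SRSF2f/w, whose 140 muscle cells gave from 0 to 278 UMIs per member. Their median depth was 15525.5 UMIs, against 14702 in the 2753 muscle cells under the label SRSF2f/f.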
